A study of Mus musculus with 38 samples.

Results

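The immediate early and dissociation stress genes described here are 36 named mouse genes, taken by symbol from the 43346 gene identifiers of the count table. All 36 matched a single identifier, and all 36 passed the filter on low counts that left 14095 genes for testing. They comprise the AP-1, EGR and NR4A transcription factors, Klf6 and Myc, the IER genes, MAP kinase phosphatases, growth arrest genes, mRNA decay and cytokine feedback genes, NF-kB feedback genes, heat shock genes and 2 further stress genes. RNA was sequenced from lung macrophages of untreated C57Bl/6 mice aged 8 to 10 weeks, with 3 replicates (A, B and C) of each of 4 populations. The interstitial macrophages came from MerTK-enriched cells sorted for CD64 and CD11b without Siglec F or lymphocyte markers. They were divided into IM1 (CD206 high, MHC class II low), IM2 (both high) and IM3 (CD206 low, MHC class II high). The alveolar macrophages (AM) were sorted on CD11c and Siglec F after removal of cells with CD11b, CD103, Gr1 or lymphocyte markers. Every lung was perfused, minced and digested with Liberase (0.5 mg per ml for 30 minutes) before the sort. No undigested or unsorted sample was analysed here. The interstitial and alveolar cells were gated by different procedures, so population and procedure cannot be told apart in any comparison with AM, whereas the 3 interstitial populations came from the same sort scheme.

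Immediate early genes are transcribed within minutes of a stimulus without new protein synthesis. Kinase cascades act on factors such as serum response factor and CREB that already sit on their promoters, and the products include transcription factors (FOS, JUN, EGR1) and feedback inhibitors (DUSP1, ZFP36, NFKBIA) that end the response. Heat shock genes are driven by heat shock factor when proteins unfold. Enzymatic digestion and sorting of tissue are known to induce many of these genes in cells taken from solid organs, which is why they are often read as a dissociation signature.

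The 12 libraries held 11818981 to 15758326 assigned reads. Levels are given in CPM, read counts scaled to a common library size after trimmed mean of M-values (TMM) normalisation. Differences are log2 fold changes with standard errors (SE) from 1 edgeR quasi-likelihood fit of all 12 libraries. A gene was called at a Benjamini-Hochberg adjusted p under 0.05 over all 14095 genes tested. The labels were checked against markers. Of the interstitial macrophage markers, the complement gene C1qa had 1936 to 2874 CPM in the 9 interstitial libraries and 0 to 0.0701 CPM in the 3 AM libraries, and C1qb had 4228 to 8628 CPM and 0 to 0.14 CPM in the same groups. The 7 alveolar macrophage markers summed to 53.2 to 266 CPM in interstitial and 50524 to 57229 CPM in AM libraries. Fibroblast markers summed to 34.3 to 111 CPM in interstitial libraries and 0 to 0.35 CPM in AM libraries, where 5 of the 6 (Col1a1, Col1a2, Col3a1, Dcn and Lum) had no count. Of 6 endothelial markers, 5 were higher in interstitial libraries and had no count in AM, while Vwf was lower. In these bulk libraries, fewer cells that express a gene and less RNA per cell cannot be told apart.

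The interstitial populations held far more RNA of this module than the alveolar macrophages. The 36 genes summed to 16697 to 28737 CPM in the 9 interstitial libraries, which was 1.77% to 2.89% of assigned reads. In the 3 AM libraries they summed to 2992 to 3349.7 CPM, or 0.281% to 0.307% of assigned reads. Dusp1 was the most abundant of the 36 in every interstitial library, and Hspa8 in every AM library. Of the 36 genes, 29 were higher in the interstitial populations (mean of IM1, IM2 and IM3 against AM), 4 were lower and 3 were not called. The 29 include genes with few AM reads. Egr3, Nr4a3, Dusp2, Fosb and Nr4a2 had 0, 4, 33, 40 and 41 reads over the 3 AM libraries. These could pass the filter on low counts only through the interstitial libraries, where they were higher. Over all genes tested, 64.6% were called in this comparison, 35.9% higher and 28.7% lower. The median log2 fold change of the 36 was 2.92, against 0.10 over all genes tested. For 25 of them every interstitial library lay above every AM library, as did 26.5% of all genes tested, and for 1 (Dusp5) every interstitial library lay below, as did 22.2%.

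**Figure D1:**
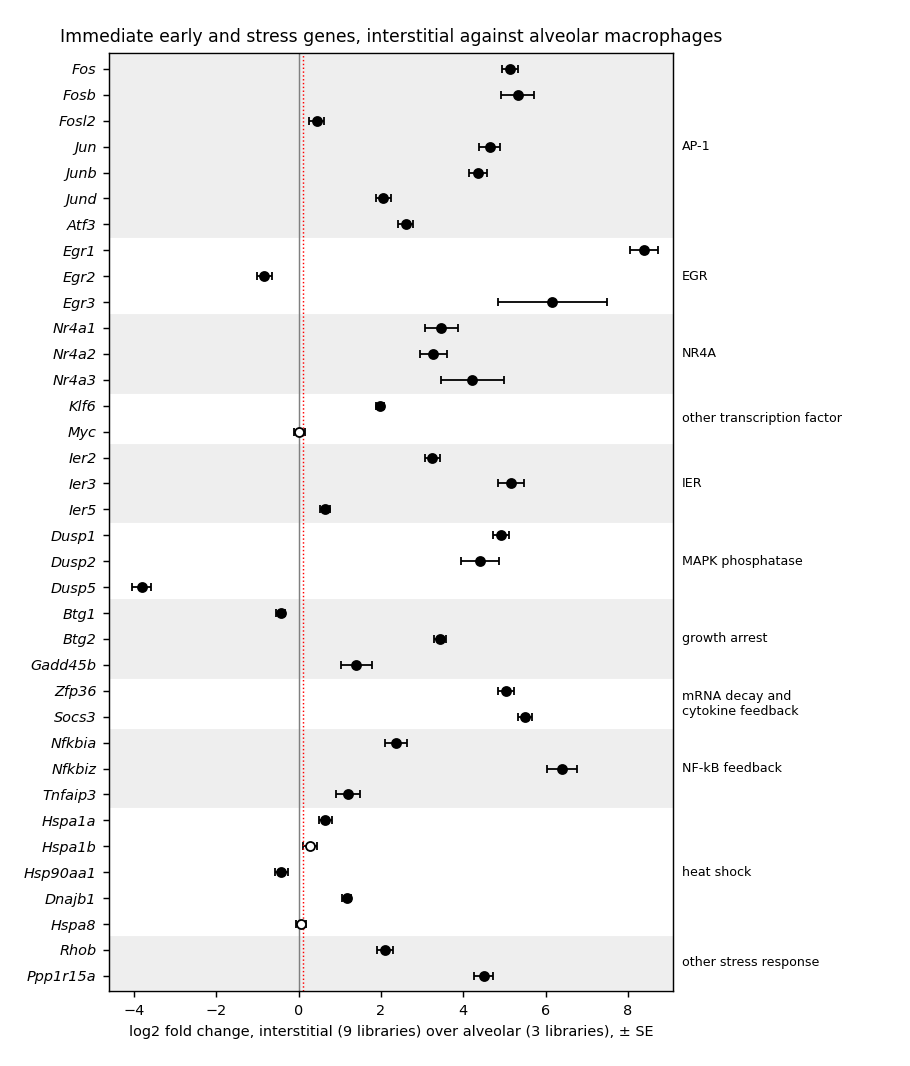
Log2 fold change ± SE (x axis) of each of the 36 genes (y axis, grouped by role) in 9 interstitial over 3 alveolar libraries; filled points were called at an adjusted p under 0.05, open points were not, and the dotted line marks the median of all genes tested (0.10). Egr1 stands at 8.39, Dusp5 at -3.81, and the 5 heat shock genes lie between -0.42 (Hsp90aa1) and 1.17 (Dnajb1).

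**Figure D2:**
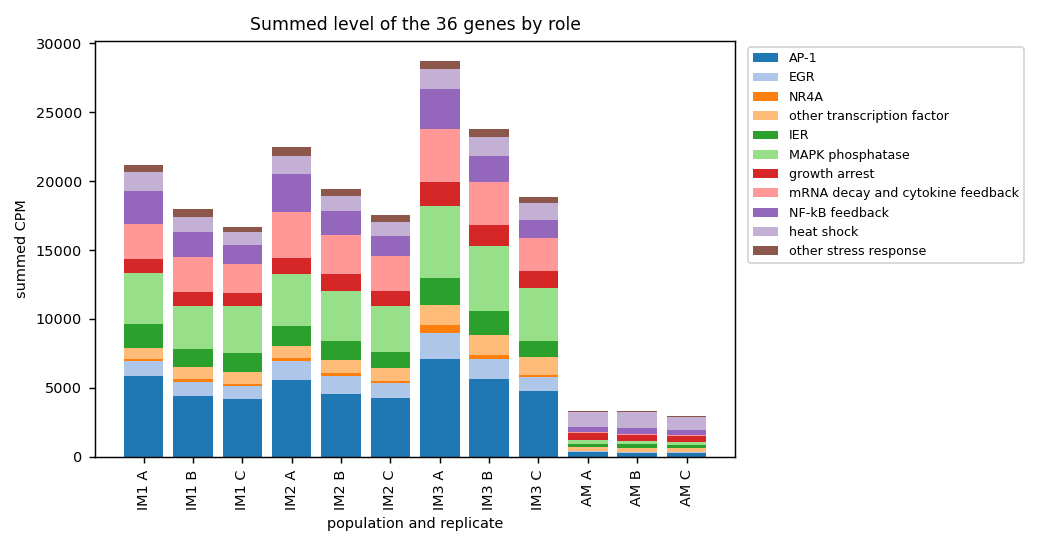
Summed level of the 36 genes (y axis, CPM) in each of the 12 libraries (x axis), stacked by role. The 9 interstitial libraries reach 16697 to 28737 CPM and the 3 AM libraries 2992 to 3349.7 CPM; within each interstitial population replicate A is the highest and replicate C the lowest.

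Promoter sequence was available from RefSeq (build GRCm38.p6) for 29 of the 36 genes and was searched on both strands, from 250 bases before each start to 50 bases after it. Egr1, Egr3, Myc, Ier2, Nfkbiz, Hsp90aa1 and Hspa8 had no window and were not searched, so nothing is said of their motifs. The CArG box, the letters bound by serum response factor, was present in the promoters of 3 of the 29 genes (Dusp5, Egr2 and Zfp36) and of 1.81% of the 27025 genes with a promoter. The CREB and ATF palindrome TGACGTCA was present for Btg2, Dusp1 and Ppp1r15a (2.03% of all genes). The heat shock element core GAANNTTC was present for 4 of the 29 genes (Fosl2, Hspa1a, Hspa1b and Jun) and 9.04% of all genes. The EGR motif GCGNGGGCG was present for 9 of the 29 and 6.27% of all genes, a kappa B motif for Dusp5, Nfkbia and Tnfaip3 (6.31% of all genes), and the AP-1 motif TGANTCA for Tnfaip3 (8.97% of all genes). These letters are a description of the windows and not evidence of binding. The 250 bases upstream of 6 genes that the results below turn on are shown 5′ to 3′, with motif matches in capitals. Dusp5 and Egr2 are shown because both hold CArG boxes and both were lower in interstitial cells, Zfp36 because it holds a CArG box and was higher, Dusp1 for its TGACGTCA and its rank, and Hspa1a and Hspa1b because the pair was higher in IM3. Egr2 has other starts that are not shown, and the window of the most upstream (chr10:67535249-67535548) held no motif match. In Zfp36 the first capitals are the EGR motif and the last are the CArG box, and in Dusp5 the capitals join 2 CArG boxes to a kappa B motif that overlaps the first of them.
Dusp5, plus strand, chr19:53528895-53529144: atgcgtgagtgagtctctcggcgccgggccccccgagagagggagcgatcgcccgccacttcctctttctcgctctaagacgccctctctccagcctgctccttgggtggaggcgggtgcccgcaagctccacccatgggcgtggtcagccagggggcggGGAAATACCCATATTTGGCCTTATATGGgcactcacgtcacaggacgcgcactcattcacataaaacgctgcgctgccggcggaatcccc
Egr2, plus strand, chr10:67537619-67537868: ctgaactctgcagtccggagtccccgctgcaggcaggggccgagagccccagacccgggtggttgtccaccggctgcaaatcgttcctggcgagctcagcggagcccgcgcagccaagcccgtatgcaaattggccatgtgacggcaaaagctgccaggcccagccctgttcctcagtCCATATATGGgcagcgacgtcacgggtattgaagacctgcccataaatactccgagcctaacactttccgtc
Zfp36, minus strand, chr7:28379229-28379478: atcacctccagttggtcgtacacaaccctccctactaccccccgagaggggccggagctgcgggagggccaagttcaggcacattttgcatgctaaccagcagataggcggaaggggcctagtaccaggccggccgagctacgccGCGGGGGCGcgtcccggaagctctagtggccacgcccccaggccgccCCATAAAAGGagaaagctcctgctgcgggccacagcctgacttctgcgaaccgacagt
Dusp1, minus strand, chr17:26508473-26508722: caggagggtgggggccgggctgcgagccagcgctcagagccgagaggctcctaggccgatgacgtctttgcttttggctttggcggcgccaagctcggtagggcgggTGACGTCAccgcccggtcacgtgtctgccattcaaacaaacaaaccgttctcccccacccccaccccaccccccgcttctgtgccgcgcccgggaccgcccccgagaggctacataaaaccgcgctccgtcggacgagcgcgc
Hspa1a, minus strand, chr17:34972157-34972406: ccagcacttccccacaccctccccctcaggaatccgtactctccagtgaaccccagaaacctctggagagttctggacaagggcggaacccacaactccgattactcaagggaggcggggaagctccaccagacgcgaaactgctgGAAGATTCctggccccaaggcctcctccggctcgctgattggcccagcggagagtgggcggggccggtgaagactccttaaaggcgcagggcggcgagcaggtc
Hspa1b, minus strand, chr17:34959239-34959488: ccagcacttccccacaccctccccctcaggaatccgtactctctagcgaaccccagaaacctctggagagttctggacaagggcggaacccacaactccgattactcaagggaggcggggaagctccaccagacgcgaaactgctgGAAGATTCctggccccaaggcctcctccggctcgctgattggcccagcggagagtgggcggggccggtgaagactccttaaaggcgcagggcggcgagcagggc
The 300-base windows of Hspa1a and Hspa1b were 98.7% identical (296 of 300 positions).

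Among the AP-1 genes, which encode subunits of the dimeric factor that binds phorbol ester response elements, 7 of 7 were higher in interstitial libraries. Fos had 2560.0, 3018 and 4102 CPM in the lowest, median and highest interstitial library, against 107, 78.1 and 75.8 CPM in AM replicates A, B and C. All 9 interstitial libraries were thus far above the AM libraries, with a log2 fold change of 5.13 ± 0.19 (SE; edgeR adjusted p = 1.52e-12). Fosb, a second FOS subunit, ran lower, at 17.1, 38.8 and 65.4 CPM against 1.54, 0.702 and 0.589 CPM in AM (5.32 ± 0.40, adjusted p = 9.94e-09). It had 40 AM reads in all and passed the filter on low counts only through the interstitial libraries. Jun, the partner of FOS, had 274, 313 and 478 CPM in interstitial libraries and 12.9, 16.6 and 13.1 CPM in AM (4.64 ± 0.25, adjusted p = 1.35e-10). No library of these 3 genes overlapped between the groups. Junb rose by 4.36 ± 0.22 and the stress-induced factor Atf3 by 2.60 ± 0.18. Jund, which is expressed more constitutively, rose by 2.06 ± 0.19. However, 52.6% of its exon bases in GENCODE gene models are shared with an antisense gene. Reads of the pair cannot be told apart without strand, and ambiguous reads were left out of the counts. Fosl2 differed least, with 73.1, 105 and 151 CPM in interstitial libraries against 82.04, 78.1 and 75.05 CPM in AM. Its groups overlapped, and its call (0.44 ± 0.18, adjusted p = 0.0417) was lost when IM2 A, IM2 B, IM3 B or any AM library was left out (adjusted p = 0.0609 to 0.129 in these fits).

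The EGR genes, zinc finger factors that recognise GC-rich elements, divided. Egr1 had 931, 1057 and 1854 CPM in the lowest, median and highest interstitial library, against 1.68, 4.91 and 4.12 CPM in AM. It had the highest fold change of the 36 (8.39 ± 0.34, adjusted p = 5.13e-12), and every interstitial library stood far above every AM library. Egr2, known in macrophages as an IL-4-inducible factor, was lower: it had 21.1, 28 and 43.8 CPM in interstitial libraries and 63.3, 40 and 51.8 CPM in AM (-0.83 ± 0.18, adjusted p = 0.000641). IM3 A (43.8 CPM) lay above AM B (40 CPM), so the groups overlapped by that pair. Egr3 was near the detection limit, with 94 reads over the 9 interstitial libraries and none over the 3 AM libraries. It passed the filter on low counts only through the interstitial libraries. Against a floor of 3 counts over the AM libraries it was at least 11.4-fold higher, and IM1 A also had no count.

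The NR4A genes encode orphan nuclear receptors that need no ligand, and 3 of 3 were higher in interstitial libraries. Nr4a1, also known as Nur77, had 105, 199 and 566 CPM in interstitial libraries and 23.2, 15.5 and 17.5 CPM in AM (3.46 ± 0.40, adjusted p = 1.65e-06). Nr4a2 had 5.35, 8.82 and 12.5 CPM against 0.631, 1.12 and 1.18 CPM in AM (3.27 ± 0.33, adjusted p = 2.79e-07). Nr4a3 was scarce, at 0.908, 2.03 and 3.45 CPM against 0.21, 0 and 0.0736 CPM in AM (4.22 ± 0.76, adjusted p = 0.000156). Nr4a3 had 4 AM reads in all and Nr4a2 had 41, and both passed the filter on low counts only through the interstitial libraries. The groups did not overlap for any of the 3. Of the other transcription factors, Klf6, a Krüppel-like factor, had 792, 865 and 1348 CPM in interstitial libraries and 245, 260.4 and 233 CPM in AM (1.98 ± 0.10, adjusted p = 4.83e-11). Myc, the growth-linked factor induced early in stimulated lymphocytes and fibroblasts, had 42.8, 50.2 and 77.2 CPM against 58.4, 46.9 and 48.9 CPM in AM. Its groups overlapped and it was not called (0.02 ± 0.13, adjusted p = 0.878).

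The 3 IER genes, short early response genes named for their inducibility, were all higher. Ier3, also called IEX-1, had 84.5, 142 and 318 CPM in interstitial libraries and 3.57, 5.05 and 4.27 CPM in AM (5.15 ± 0.32, adjusted p = 9.01e-10). Ier2 had 901, 1112 and 1573 CPM against 109, 133 and 124 CPM in AM (3.25 ± 0.18, adjusted p = 2.05e-10). Ier5 differed by much less, with 124, 159 and 258 CPM against 107, 103 and 99.6 CPM in AM (0.64 ± 0.13, adjusted p = 0.000353). No interstitial library of any of the 3 fell into the AM range.

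The MAP kinase phosphatases moved in opposite directions. Dusp1 (ENSMUSG00000024190, mm10 chr17:26505590-26508519, minus strand), which inactivates p38 and JNK, had 3156, 3649 and 5098 CPM in interstitial libraries and 170.5, 106 and 99.8 CPM in AM (4.92 ± 0.20, adjusted p = 5.06e-12). Dusp2 (ENSMUSG00000027368, chr2:127336159-127338376, plus strand), a nuclear phosphatase of activated leukocytes, had 4.87, 12.6 and 115 CPM against 0.911, 0.702 and 0.736 CPM in AM (4.40 ± 0.46, adjusted p = 4.28e-07). With 33 AM reads in all, Dusp2 passed the filter on low counts only through the interstitial libraries. Dusp5 (ENSMUSG00000034765, chr19:53529109-53542431, plus strand), a nuclear phosphatase specific for ERK, was the reverse: it had 2.80, 7.24 and 13.3 CPM in interstitial libraries and 107, 102 and 117 CPM in AM (-3.81 ± 0.23, adjusted p = 7.07e-10). It was the only one of the 36 with every interstitial library below every AM library. In GENCODE gene models an antisense gene covers 22.1% of the Dusp5 exon bases. Reads of that pair cannot be told apart without strand, and ambiguous reads were left out of the counts.

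The growth arrest genes differed among themselves. Btg2, an antiproliferative gene that recruits deadenylase to mRNA, had 730.0, 843 and 1359.8 CPM in interstitial libraries and 81.2, 81.1 and 82.4 CPM in AM (3.43 ± 0.15, adjusted p = 1.45e-11). Gadd45b, a stress sensor upstream of p38, had 15.4, 20.9 and 54.8 CPM against 10.5, 10.8 and 9.80 CPM in AM (1.40 ± 0.37, adjusted p = 0.00393). Neither overlapped between the groups. Btg1, the paralog of Btg2, was lower, with 207, 279 and 411 CPM in interstitial libraries and 395, 400.1 and 343 CPM in AM (-0.43 ± 0.11, adjusted p = 0.00216), and its 3 IM3 libraries lay within or above the AM range.

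Zfp36 (tristetraprolin), which binds AU-rich elements and marks cytokine mRNAs for decay, had 1550.3, 2076 and 3036 CPM in interstitial libraries and 65.4, 63.2 and 66.9 CPM in AM (5.03 ± 0.20, adjusted p = 4.22e-12). Socs3, the feedback inhibitor of JAK and STAT3 signalling, had 465, 687 and 864 CPM against 15.8, 15.6 and 12.6 CPM in AM (5.49 ± 0.17, adjusted p = 2.14e-13). Both were far above the AM range in every interstitial library. The 3 NF-kB feedback genes were also higher. Nfkbiz, which encodes the nuclear co-factor IkB-zeta, had 159, 267 and 524 CPM against 2.31, 3.23 and 4.71 CPM in AM (6.39 ± 0.36, adjusted p = 2.76e-10). Nfkbia, the cytoplasmic inhibitor IkB-alpha, was abundant in both groups, with 902, 1201 and 2102 CPM in interstitial libraries and 281, 295 and 251 CPM in AM (2.36 ± 0.27, adjusted p = 1.38e-06). Tnfaip3 (A20), a ubiquitin-editing enzyme, had 94.7, 215 and 540.3 CPM against 92.6, 118 and 88.4 CPM in AM. Its groups overlapped through the IM1 libraries, and it was called over the mean of the 3 populations (1.20 ± 0.30, adjusted p = 0.00225).

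Of the 5 heat shock genes, 2 were higher, 1 was lower and 2 were not called, with a median log2 fold change of 0.27. Dnajb1, an HSP40 co-chaperone, had 163, 191 and 219 CPM in interstitial libraries and 80.7, 95.4 and 81.3 CPM in AM without overlap (1.17 ± 0.11, adjusted p = 8.52e-08). Hspa8, the constitutive HSC70, had 664, 768 and 968 CPM against 782, 818 and 695 CPM in AM (0.05 ± 0.12, adjusted p = 0.74). Hsp90aa1, the inducible HSP90, had 46.8, 61.6 and 87.6 CPM against 78.9, 103 and 72.8 CPM in AM (-0.42 ± 0.16, adjusted p = 0.0301). Both of these overlapped between the groups, and the Hsp90aa1 call was lost when IM2 C, IM3 C or AM B was left out and with upper-quartile scaling (adjusted p = 0.0513 to 0.233 in these fits). The inducible HSP70 pair is described with the interstitial populations below. Reads from near-identical copies limit this group, since 63.4% of the 100-base windows of Hspa8, 47.5% of Hsp90aa1, 56.5% of Hspa1a and 49.9% of Hspa1b also occur in another annotated gene and multi-mapped reads were not counted. The 2 remaining stress genes were higher. Ppp1r15a (GADD34), which restores translation after stress, had 159.7, 216 and 336 CPM in interstitial libraries and 8.27, 9.82 and 11.6 CPM in AM (4.49 ± 0.24, adjusted p = 1.24e-10). Rhob, an early-induced small GTPase, had 172, 303 and 409 CPM against 64.3, 78.03 and 63.7 CPM in AM (2.10 ± 0.19, adjusted p = 1.02e-07). Neither overlapped between the groups.

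**Figure D3:**
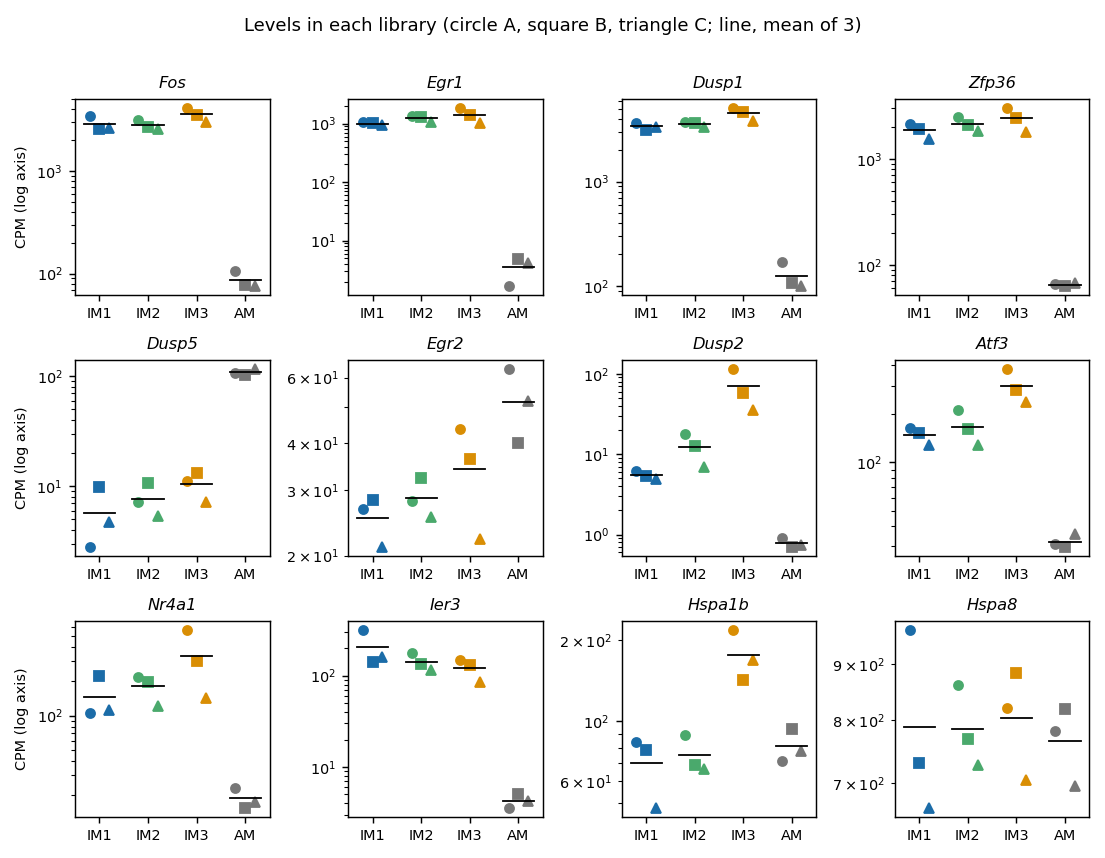
Level in each library (y axis, CPM on a log axis that does not start at 0 and differs between panels) of 12 genes in IM1, IM2, IM3 and AM (x axis); circles are replicate A, squares B, triangles C, and the line is the mean of 3 libraries. Fos, Egr1, Dusp1 and Zfp36 separate all interstitial from all AM libraries, Dusp5 does so in reverse, and Dusp2, Atf3 and Hspa1b are highest in IM3.

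Per kilobase of exon length, which allows levels of different genes to be compared, the order within the module differed between the cell types. Dusp1, Fos and Zfp36 led in all 3 interstitial populations, and in IM3 they stood at 1678, 1507 and 1354 CPM per kb. In AM the leading genes were Hspa8, Nfkbia and Ier2, at 184, 175 and 80.2 CPM per kb. Egr1 was eighth of the 36 in each interstitial population and ranked 30 in AM, and Dusp5 ranked 34 in IM1, 33 in IM2 and IM3, and 7 in AM. Nr4a2, Nr4a3 and Egr3 were the 3 lowest in IM2, IM3 and AM.

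Each interstitial population was also set against AM by itself. These comparisons share the 3 AM libraries, so their counts are not independent. IM1 had 26 of 36 higher and 3 lower, when 58.8% of all genes tested were called (33.1% higher and 25.7% lower), and its median log2 fold change was 2.62 against 0.12 over all genes. IM2 had 28 higher and 4 lower, when 60.5% were called (34.3% and 26.2%), with a median of 2.74 against 0.11. IM3 had 29 higher and 2 lower, when 57.4% were called (32.4% and 25%), with a median of 3.23 against 0.09. Every library of IM1 lay above every AM library for 25 members (34.3% of all genes tested) and below for 3 (28.1%). For IM2 these counts were 28 (38.1%) and 4 (31.7%), and for IM3 they were 30 (37.7%) and 1 (32.3%). The lower genes were Egr2, Dusp5 and Btg1 in IM1, the same with Hsp90aa1 in IM2, and Egr2 and Dusp5 in IM3. The Hsp90aa1 call in IM2 (-0.59, adjusted p = 0.0184) was lost without IM2 B, IM2 C or AM B (adjusted p = 0.0566 to 0.101 in these fits). In IM3 the Egr2 call (-0.60 ± 0.22, adjusted p = 0.0307) was lost when IM3 B, IM3 C, AM A or AM C was left out (adjusted p = 0.0518 to 0.149 in these fits), which left 1 lower gene.

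Between the interstitial populations, most of the called members were lower in IM1 than in IM3. Of the 36 genes, 1 was higher in IM1 than in IM3 and 13 were lower, when 24.4% of all genes tested were called (12.7% higher and 11.7% lower). The 13 were Fosb, Atf3, Nr4a1, Klf6, Myc, Ier5, Dusp2, Btg1, Btg2, Nfkbiz, Tnfaip3, Hspa1a and Hspa1b, and the median of all 36 was -0.42 against 0.02 over all genes. The count of 13 fell to 6 without IM3 A, to 8 without IM1 C, to 8 when only IM1 and IM3 were fitted, and to 10 without the A libraries of all 4 populations. IM2 had 0 of 36 higher and 6 lower than IM3 (11.4% of all genes tested were called, 6.49% higher and 4.94% lower), with a median of -0.29 against 0 over all genes. At an unadjusted p under 0.05 there were still 0 higher and 9 lower, against 12% and 9.94% of all genes tested. With DESeq2 there were again 0 higher. The 6 were Atf3, Klf6, Dusp2, Btg1, Hspa1a and Hspa1b, all of which are among the 13. The libraries of IM1 lay wholly below those of IM3 for 12 members (17.8% of all genes tested) and wholly above for 0 (18.9%). Those of IM2 lay wholly below IM3 for 8 members (14.8%) and wholly above for 0 (15.7%). Dusp1 was among both, with 3649, 3156 and 3338 CPM in IM1, 3723, 3615 and 3329 CPM in IM2, and 5098, 4696 and 3785 CPM in IM3. It was not called for IM1 against IM3 in the main fit (-0.42 ± 0.18, adjusted p = 0.0977). It was called with the replicate block (edgeR adjusted p = 0.0384), with no filter (0.014) and without the A libraries of all 4 populations (0.0388). The IM1 against IM3 calls of Atf3, Klf6, Dusp2, Btg1, Hspa1a and Hspa1b held in every setting run, and those of Fosb, Nr4a1, Myc, Ier5, Btg2, Nfkbiz and Tnfaip3 did not. All 7 of these calls were lost without IM3 A (adjusted p = 0.0622 to 0.261).

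**Figure D4:**
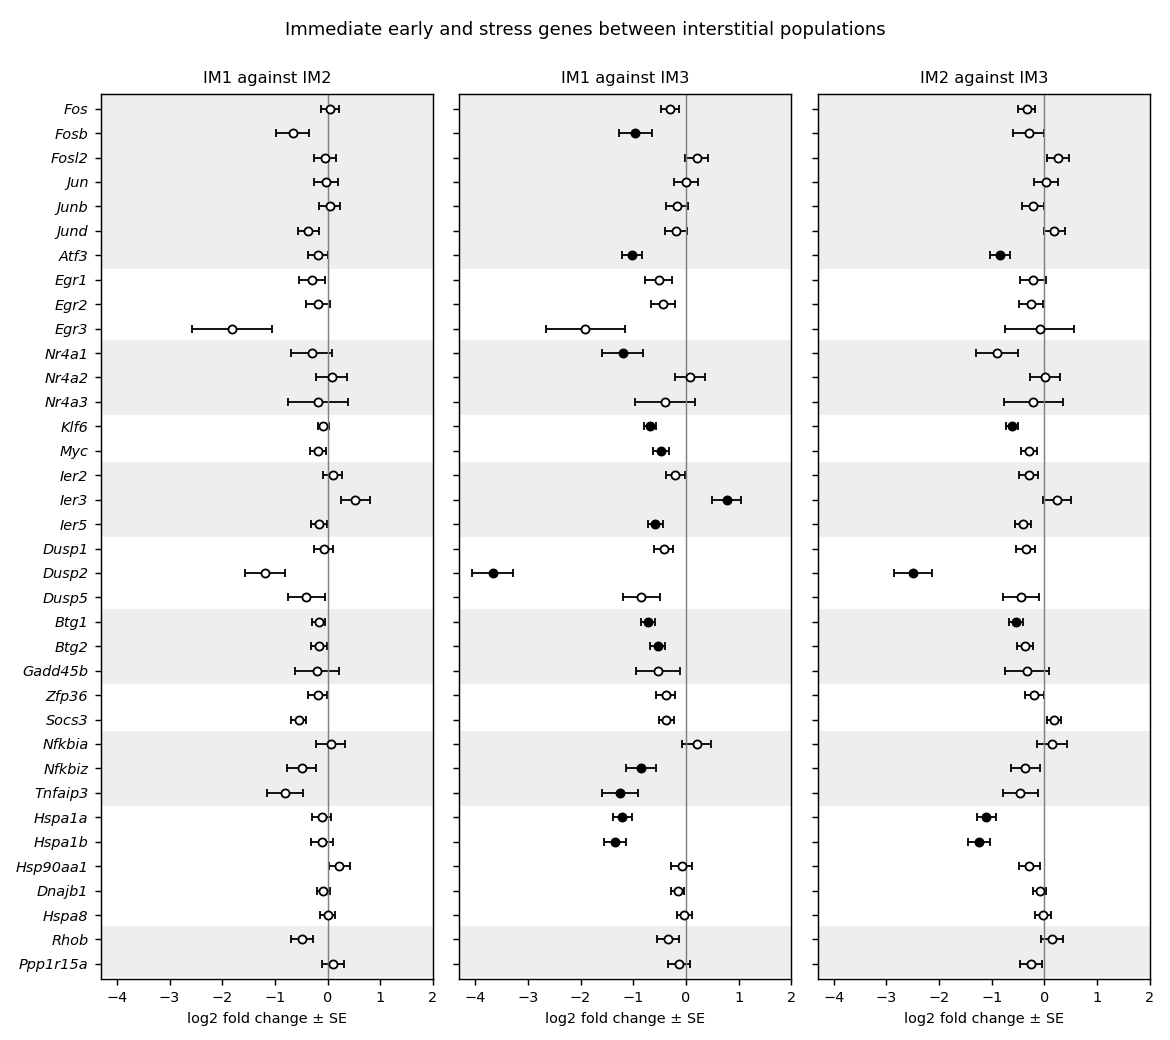
Log2 fold change ± SE (x axis) of the 36 genes (y axis, ordered by role with shading) for IM1 against IM2, IM1 against IM3 and IM2 against IM3, 3 libraries each; filled points were called at an adjusted p under 0.05. No point is filled for IM1 against IM2, and Dusp2 lies farthest from 0, at -3.67 and -2.49, in the comparisons with IM3.

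Dusp2 differed most. It had 6.20, 5.31 and 4.87 CPM in IM1 replicates A, B and C, 17.7, 12.6 and 7.0 CPM in IM2, and 115, 57.8 and 35.5 CPM in IM3. The lowest IM3 library lay above the highest of the other populations. The log2 fold change was -3.67 ± 0.39 for IM1 against IM3 (adjusted p = 4.83e-06) and -2.49 ± 0.36 for IM2 against IM3 (adjusted p = 0.000206). The second of these was not called when only IM2 and IM3 were fitted (adjusted p = 0.0612), and was called in all other settings run. The Btg1 call for IM2 against IM3 was lost without IM2 A (adjusted p = 0.0854) or IM3 B (adjusted p = 0.0798). The inducible HSP70 genes, low in many resting cells and made after heat or proteotoxic stress, were also higher in IM3. Hspa1a had 54.6, 44.97 and 35.2 CPM in IM1, 56.01, 43.7 and 45.7 CPM in IM2, 121, 89.5 and 101 CPM in IM3, and 36.6, 45.3 and 34.4 CPM in AM. Hspa1b had 83.8, 78.5 and 47.8 CPM in IM1, 89.2, 68.9 and 66.4 CPM in IM2, 219, 142 and 169 CPM in IM3, and 71.1, 93.5 and 77.8 CPM in AM. For both genes every IM3 library was above every IM1, IM2 and AM library, while IM1 and IM2 overlapped with AM. Hspa1b was -1.34 ± 0.21 for IM1 against IM3 (adjusted p = 0.000228) and -1.24 ± 0.21 for IM2 against IM3 (adjusted p = 0.000779). Hspa1a was -1.21 ± 0.18 and -1.10 ± 0.18 in the same comparisons (adjusted p = 0.000114 and 0.000471). Because much of the pair's sequence is shared, their separate levels are uncertain.

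Atf3 had 163, 151 and 127 CPM in IM1, 210.0, 161 and 128 CPM in IM2, and 381, 281 and 236 CPM in IM3, so that IM3 did not overlap with either. It was lower by 1.02 ± 0.19 in IM1 than in IM3 on the log2 scale (adjusted p = 0.000983). Nr4a1 had 105, 223 and 111 CPM in IM1, 220.1, 199 and 121 CPM in IM2, and 566, 300.5 and 142 CPM in IM3. The populations overlapped, and the IM1 against IM3 value was -1.20 ± 0.39 (adjusted p = 0.037). This call was lost without IM1 A, IM1 C, IM3 A or IM3 B, with DESeq2, and when only these populations were fitted (adjusted p = 0.0609 to 0.302), and the value without IM3 A was -0.60. Tnfaip3 had 94.7, 215 and 115 CPM in IM1, 313, 252 and 178 CPM in IM2, and 540.3, 282 and 195 CPM in IM3 (IM1 against IM3 -1.26 ± 0.34, adjusted p = 0.0134). Its call was lost without IM1 A, IM1 C or IM3 A, and its value without IM3 A was -0.76. Klf6 was steady within each population, with 810.3, 792 and 845 CPM in IM1, 829.8, 865 and 885 CPM in IM2, and 1348, 1346 and 1238 CPM in IM3 (IM1 against IM3 -0.68 ± 0.11, adjusted p = 0.000182). Its IM3 libraries stood clear of the others.

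Ier3 ran the other way. It had 318, 142 and 161 CPM in IM1, 176, 135 and 116 CPM in IM2, and 148, 130.2 and 84.5 CPM in IM3, so that the populations overlapped. The IM1 against IM3 value was 0.77 ± 0.27 (adjusted p = 0.049) and fell to 0.32 without IM1 A. The call was lost when any of 8 single libraries was left out (IM1 A, IM2 B, IM2 C, IM3 B, IM3 C and each AM library, with adjusted p = 0.0575 to 0.309).

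No gene of this module was called between IM1 and IM2 in the unblocked fit. In it edgeR called 0 of 36 higher and 0 lower (1.71% of all genes tested were called, 0.49% higher and 1.22% lower). At an unadjusted p under 0.05, 0 were higher and 6 lower, as were 8.13% and 9.41% of all genes tested. Deviations from the population mean correlated between same-letter libraries of IM1 and IM2 (Pearson r over genes of 0.256 for A, 0.166 for B and 0.292 for C), so the comparison was also made with the replicate letter as a block. The blocked fit called 3 genes lower in IM1: Fosb (-0.65, adjusted p = 0.0227), Dusp2 (-1.09, adjusted p = 0.0192) and Socs3 (-0.54, adjusted p = 0.0376). Without the block these stood at adjusted p = 0.281, 0.15 and 0.0714. Over all genes tested, the blocked fit called 392 and the unblocked fit 241. Socs3 had 465, 612 and 526 CPM in IM1 and 864, 747 and 730.2 CPM in IM2, with no overlap. All IM1 libraries lay below all IM2 libraries for 4 members (Egr1, Egr3, Dusp2 and Socs3; 8.25% of all genes tested) and above for 0 (7.21%). DESeq2 called 2 lower (Dusp2 and Socs3), and leaving out IM1 B raised the count of lower genes to 4. Over all genes tested, these settings called 591 and 1904. For IM2 against IM3, whose letters also correlated, the blocked fit called the same 6 genes.

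Within each interstitial population the 36 genes varied together with the replicate letter. Replicate A held the highest level of 22 of 36 genes in IM1 (38.9% of all genes tested), 30 in IM2 (35.9%) and 27 in IM3 (34.1%). Replicate C held the lowest of 23 genes in IM1 (23.9%), 30 in IM2 (30.4%) and 32 in IM3 (34.5%). In AM, replicate A was highest for 13 of 36 (35.8% of all genes) and C lowest for 16 (31.9%). Replicate A was the highest in all 3 interstitial populations for 18 of the 36 genes, among them Fos, Fosb, Jun, Junb, Egr1, Dusp1, Zfp36 and Nfkbia, and for 10.3% of all genes tested. The median ratio of A to C over the members was 1.27 in IM1, 1.33 in IM2, 1.61 in IM3 and 1.06 in AM, and over all genes it was 0.988, 0.995, 1.00 and 1.00. The genes are not independent of each other, and nothing in the labels says what the letters stand for. Gadd45b shows the pattern, with 34.7, 18.6 and 16.3 CPM in IM1 A, B and C, 42.99, 20.9 and 15.8 CPM in IM2, and 54.8, 29.7 and 15.4 CPM in IM3. Klf6 does not, and Nr4a2, Dusp5 and Btg1 were highest in B of every interstitial population. Ribosomal protein genes took 0.671%, 0.467% and 0.418% of assigned reads in the A libraries of IM1, IM2 and IM3, against 0.307% to 0.408% in their B and C libraries, and the part of this in the pattern was not tested. Summed markers of other cell types also moved with the letter. Epithelial markers were highest in A in all 3 populations, at 30.9, 20.8 and 23.4 CPM in IM1 A, B and C, 56.2, 18.2 and 19.4 CPM in IM2, and 18.7, 9.68 and 7.51 CPM in IM3. Monocyte markers (1.17 to 7.15 CPM over the 9 libraries) and B cell markers (32.5 to 68.4 CPM) were likewise highest in A of each population. Fibroblast markers (34.3 to 111 CPM) and T and NK cell markers (0.874 to 7.77 CPM) were lowest in A of each. Single markers did not all follow their sums. Dcn, a fibroblast marker, was highest in A of IM1 (8.39 CPM) and IM2 (9.26 CPM). Cd3g, a T cell marker, was also highest in A of IM1 (0.262 CPM) and IM2 (0.602 CPM). In IM3 the T and NK sum was mainly Klrb1c (5.69 to 7.63 CPM). Cd79a, a B cell marker, was lowest in A of IM1 (0.0874 CPM) and IM2 (0.301 CPM). The part of these cells in the pattern was not tested.

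**Figure D5:**
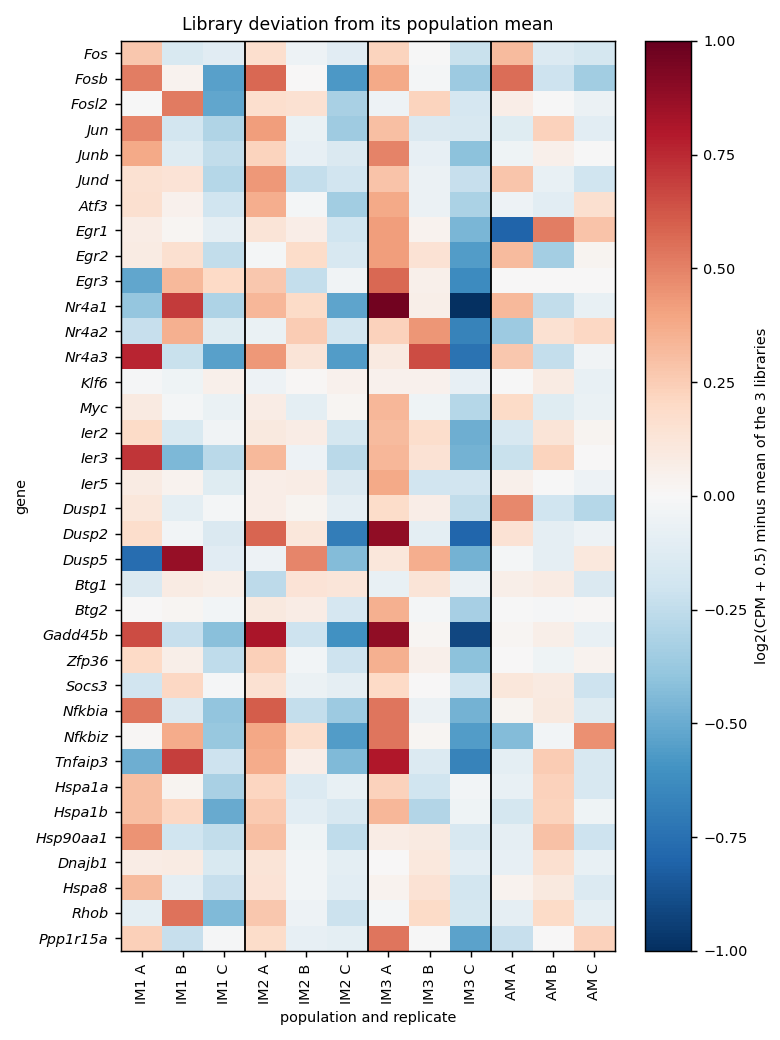
Deviation of each library from the mean of its population on the log2(CPM + 0.5) scale (colour, limited to -1 to 1) for the 36 genes (rows) in 12 libraries (columns). In IM1, IM2 and IM3 the A column is mostly red (above the mean) and the C column mostly blue (below), and AM shows no such column.

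The spread between replicates of these genes was widest in IM3. For members with a mean of at least 10 CPM the median SD of log2 levels was 0.254 in IM1 (31 genes), 0.226 in IM2 (32), 0.345 in IM3 (33) and 0.145 in AM (27). Over all genes at that level it was 0.264, 0.162, 0.129 and 0.105. Within letters, IM1 lay below IM3 for 29 of 36 genes in A, 31 in B and 29 in C, and for 23 in all 3, as did 25.5% of all genes tested. IM2 lay below IM3 for 26, 32 and 18 of 36 genes in A, B and C (49.1%, 50.9% and 49.5%), so the count in C was near the share of all genes. It did so in all 3 letters for 16 genes, as did 23.5%.

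Other genes of the same pathways, chosen by function, were also set against AM, where 35.9% of all genes tested were higher and 28.7% lower. Of 32 further early response genes tested, 22 were higher and 7 lower (median 1.10). Ccn1 (CYR61), a secreted matrix protein and serum response factor target, had 207, 326 and 672 CPM in the lowest, median and highest interstitial library and 1 read in all AM libraries together. Hes1, a repressor downstream of Notch, had no AM read and was at least 65.7-fold higher. Bhlhe40, a circadian and cytokine-linked repressor, was lower, with 24.2, 43.4 and 50.5 CPM against 442, 499 and 466 CPM in AM (-3.52 ± 0.15, adjusted p = 1.04e-11). Sgk1, a serum- and glucocorticoid-inducible kinase, was likewise lower, with 159, 232 and 295 CPM against 1033, 1085 and 964 CPM in AM (-2.22 ± 0.10, adjusted p = 1.07e-11). Of these 32 genes, 7 were higher and 7 lower for IM1 against IM3 (12.7% and 11.7% of all genes tested). For IM2 against IM3, 8 were higher and 3 lower (6.49% and 4.94%). Rgs1, which dampens G protein signalling, was -2.52 ± 0.18 for IM1 against IM3 (adjusted p = 6.40e-08), and Plk2 was 1.95 ± 0.14 in that comparison (adjusted p = 1.09e-07). Of the 20 kinases and transcription factors upstream of these genes, 7 were higher, 7 lower and 6 not called (median -0.03), and Srf, which encodes serum response factor and was picked after its values were seen, was not called (0.26 ± 0.13, adjusted p = 0.0905).

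Of 17 early response cytokines and mediators tested, 14 were higher and 3 lower than in AM (median 3.09). Ccl2, a monocyte chemoattractant, had 22.6, 78.8 and 169 CPM in interstitial libraries and 0.42, 0.14 and 0.295 CPM in AM (7.80 ± 0.39, adjusted p = 6.22e-11). Il1a was lower, with 1.96, 4.72 and 8.21 CPM against 27.04, 43.02 and 31.96 CPM in AM (-2.90 ± 0.16, adjusted p = 2.38e-10). Il1b had 13.5, 28.9 and 32.2 CPM in IM1, 38.2, 84.1 and 55.7 CPM in IM2, and 398, 456 and 323 CPM in IM3 (IM1 against IM3 -3.97 ± 0.32, adjusted p = 2.50e-07). Ccl7 was opposite, with 505, 206 and 226 CPM in IM1 and 34.2, 38.3 and 25.04 CPM in IM3 (3.26 ± 0.30, adjusted p = 1.03e-06). Among interstitial libraries, those of IM3 were thus the highest in Il1b and the lowest in Ccl7. Of the 17, 2 were higher and 6 lower for IM1 against IM3 (12.7% and 11.7% of all genes tested). For IM2 against IM3, 2 were higher and 7 lower (6.49% and 4.94%). Of 19 NF-kB subunits and regulators, 10 were higher and 5 lower (median 0.55). Traf1 had 31.7, 34.3 and 46.4 CPM in interstitial libraries and 0.0701, 0.14 and 0.0736 CPM in AM (8.45 ± 0.24, adjusted p = 8.56e-14).

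Further heat shock and stress genes were called in both directions, with shares to be read against the same 35.9% higher and 28.7% lower of all genes tested. Of 23 other heat shock genes, 6 were higher, 10 lower and 7 not called (median -0.12), and the 10 became 6 without AM B. Hspd1, the mitochondrial HSP60, had 62.4, 76.2 and 94.8 CPM in interstitial libraries and 126, 134 and 119 CPM in AM (-0.71 ± 0.09, adjusted p = 4.52e-06). Of these 23 genes, 1 was called for IM1 against IM3 (Hspa2) and 2 for IM2 against IM3 (Hspd1 and Bag3), against 24.4% and 11.4% of all genes tested, and these genes are named here after their values were seen. The Hspa2 call was lost without IM1 B, IM1 C, IM3 A or IM3 B, and the Bag3 call without IM2 A, IM2 B, IM3 A or IM3 B. The Hspd1 call was lost without any IM2, IM3 or AM library, without IM1 C, and with the replicate block (adjusted p = 0.0527). Of 16 genes of the integrated stress response, 4 were higher, 6 lower and 6 not called (median -0.06). Ddit4 (REDD1), an inhibitor of mTORC1, had 7.07, 30.4 and 78.8 CPM against 0.701, 0.0702 and 0.516 CPM in AM (6.19 ± 0.71, adjusted p = 1.41e-06). Hmox1, the haem-degrading oxygenase, had 115, 192 and 258 CPM against 619, 937 and 768 CPM in AM (-2.13 ± 0.12, adjusted p = 3.25e-10). Asns and Trib3, targets of ATF4, were higher in IM1 than in IM3 by 1.84 ± 0.34 (adjusted p = 0.00104) and 1.53 ± 0.25 (adjusted p = 0.000349).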

How the data were processed

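Deposited values are raw read counts per gene and run. Per the file headers, featureCounts (Subread 1.5.0-p1) made them without strand on Ensembl 78 gene models, leaving out multi-mapped and ambiguous reads. STAR 2.5.1b, build mm10, and DESeq2 1.8.1 with R 3.2.0 are named in the submitters' processing notes. SMART-Seq v4 libraries from 2 ng of RNA of about 50000 sorted cells were sequenced on Ion Proton, per the labels. Here the 38 runs were summed to 12 libraries. The sums equal the deposited counts per library (0 cells differing), and 71.06% to 77.6% of reads were assigned. Gene coordinates are those of the count files, and symbols were matched by Ensembl identifier for 42462 of 43346 identifiers (98.0%).

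Counts were tested with edgeR 4.0.16 (R 4.3.3): TMM, filterByExpr by population (minimum count 10), robust quasi-likelihood F test, population as the only term, and Benjamini-Hochberg adjustment over 14095 genes. The 36 genes and the companion and marker lists were chosen with earlier results of these data known. Values per library are given for up to 3 genes of each role with the largest called change against AM, those called against the main direction, those called between interstitial populations with a log2 change of at least 1, and the Hspa1a and Hspa1b pair. Other members were described after their values were seen. Companion genes were named from the 3 largest called changes in each direction against AM and the 2 largest between interstitial populations in each list. A gene with 0 counts in AM was compared with a floor of 3 counts. This covers counting error only, since the amplified reads carry no molecular identifiers. Replicate letters paired IM1 with IM2 and IM2 with IM3 by correlation of their deviations (0.143 to 0.292), so the block is given for those comparisons. The labels do not say that replicates came from separate animals, so p-values reflect library-to-library spread only, which may be technical. Between replicates, chi-square per degree of freedom over genes was 21.33 to 90.52 in IM1, 16.01 to 25.94 in IM2, 13.41 to 17.18 in IM3 and 9.33 to 13.46 in AM, while the fit assumes a common spread. The summed level of the interstitial macrophage markers is not reported here. Alternatives were RLE and upper-quartile scaling, no filter, DESeq2 1.42.0, the replicate block, fits of only the compared populations, and leaving out each library. Leaving out all libraries of 1 letter was added after the data were seen.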

Additional observations from a re-analysis of the deposited data

Results flagged for a closer look

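Among the 9 interstitial libraries, single libraries stood apart from the other 8 by Dixon's test for 7 of the 36 genes, and chance gives about 1 such flag in 20 groups. IM3 replicate A was the highest library for 6 of them. Its level was 566 CPM for Nr4a1 and 77.2 CPM for Myc. It was 258 CPM for Ier5, 115 CPM for Dusp2, 1359.8 CPM for Btg2 and 540.3 CPM for Tnfaip3. The 9 libraries include 3 populations, and IM3 differed from IM1 for these 6 genes in the report. IM1 replicate A stood apart for Ier3, at 318 CPM.

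For 2 genes the effects against AM had opposite signs in a pair of interstitial populations that also differed by test. Myc was -0.47 for IM1 against IM3 (edgeR adjusted p = 0.037), with effects against AM of -0.19 in IM1 and 0.28 in IM3, neither of which was called. The Myc difference was lost without IM1 C, IM3 A, IM3 B or AM C, with upper-quartile scaling, and when only IM1 and IM3 were fitted (adjusted p = 0.0501 to 0.197). Hspa1b was -1.34 for IM1 against IM3 and -1.24 for IM2 against IM3, with effects against AM of -0.21 in IM1, -0.11 in IM2 and 1.13 in IM3, of which the last was called.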

How the results depend on the processing

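The counts of the 36 genes called against AM stayed within 1.5 times under rescaling (RLE, upper quartile), no filter, DESeq2, the replicate block and fits of only the compared populations. Leaving out 1 library, or all 4 libraries of a letter, gave 28 to 29 higher and 3 to 4 lower for the interstitial mean. It gave 23 to 27 and 3 to 4 for IM1, 26 to 28 and 3 to 4 for IM2, and 29 to 30 and 1 to 2 for IM3. Between interstitial populations these settings gave 0 to 0 higher and 0 to 4 lower for IM1 against IM2, 0 to 1 and 6 to 15 for IM1 against IM3, and 0 to 0 and 4 to 8 for IM2 against IM3. For IM1 against IM2, where 0 genes were called, no filter gave 1 higher (Ier3) and 4 lower, DESeq2 gave 2 lower, and the replicate block 3 lower. Over all genes tested, these settings called 941, 591 and 392. For IM1 against IM3, fitting only these populations gave 0 higher and 8 lower. The block gave 16 lower. Deviations of same-letter IM1 and IM3 libraries correlated unevenly over all genes (Pearson r of 0.066 for A, -0.122 for B and 0.165 for C). Of the 36 genes, 18 were highest in A of all 3 interstitial populations. The block changed no other count of calls by over 1.5 times. Of 148 single-gene results, 20 lost their call under at least 1 setting. Uncalled values changed sign against AM for Myc (-0.04 to 0.12 over the left-out libraries, with -0.03 without IM3 A, -0.04 without AM B, -0.02 without AM C, -0.01 without all B) and for Hspa8 (-0.02 to 0.10, with -0.01 without IM1 A, -0.02 without AM C, -0.02 without all A). The cause was not tested. The companion heat shock genes lower against AM numbered 5 to 10 when libraries were left out. Upper-quartile scaling moved the median of all genes against AM to 0.14. At these depths 3 counts are 0.190 to 0.254 CPM, which limits Egr3 and Nr4a3.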
